A study of Homo sapiens with 6 samples.

Results

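The cytosolic ribosomal protein genes were compared between untreated U251 cells and U251 cells exposed to sevoflurane (Sev), a volatile anesthetic. The members were the protein-coding features whose symbol is that of a ribosomal protein of the small subunit (RPS) or large subunit (RPL), together with RPLP0, RPLP1, RPLP2 and RPSA. This gave 85 of the 61496 features in the count table, and 82 of them had enough counts to be tested. They comprised 31 standard genes of the small (40S) subunit, 46 standard genes of the large (60S) subunit and 8 paralog-type genes, which are copies that resemble a standard gene. The members lie on 21 chromosomes.

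U251 is a human glioma cell line in long use. Untreated cells gave 3 libraries (control 1 to 3) and cells kept in Sev gas for 2 h gave another 3 (Sev 1 to 3), all made from total RNA depleted of ribosomal RNA, with adapters that keep the strand. The labels give no concentration for the single library, and the treatment protocol lists several, of which the study names the highest for the sequencing. The labels do not say whether the 3 libraries of a group came from separate cultures, and the study's methods speak of independent experiments in general without naming the sequencing, so the p-values measure the spread between these libraries, which may be technical.

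Each ribosome pairs a small subunit, which reads the mRNA, with a large subunit, which joins the amino acids. Each subunit is built in the nucleolus from ribosomal RNA and a fixed set of proteins, most of them present in a single copy per ribosome. The mRNAs of most ribosomal proteins begin with a C followed by a run of pyrimidines, the 5′ terminal oligopyrimidine (TOP) tract, through which growth signaling by the mTORC1 kinase controls their translation. Glioma cells, like other growing cells, spend much of their synthesis on ribosomes.

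The library totals were between 38624292 and 46318311 counts. Of the 9 glial marker genes, VIM was the most abundant, at 5120 to 6500 CPM, and all but OLIG2 were over 1 CPM in every library. OLIG2 was at 2.27 to 2.52 CPM in control and 0.451 to 0.757 CPM in Sev libraries. OLIG2, S100B and SOX2 were lower in Sev, at log2 fold changes of −1.99, −1.10 and −0.72 (adjusted p = 0.000693, 0.00215 and 0.000367, edgeR), and CD44 and EGFR were higher, at 0.97 and 0.27 (adjusted p = 0.000174 and 0.0451, edgeR), the call of EGFR holding in 2 of the 6 fits with a library left out. Of the leukocyte markers CD3E and AIF1 were at 0 in every library and PTPRC was under 1 CPM, while CD68 had means of 3.01 and 4.8 CPM in control and Sev and CD14 rose from 1.34 to 4.97 CPM (adjusted p = 0.00046, edgeR). EPCAM and CDH1 of epithelial cells were under 1 CPM, and KRT18 rose from 20.9 to 29.4 CPM (adjusted p = 0.00557, edgeR). SYP and SLC17A7 of neurons were under 1 CPM, SYT1 rose from 13.5 to 19.7 CPM and GAD1 fell from 16.7 to 7.45 CPM (adjusted p = 0.00521 and 0.00066, edgeR). Of the endothelial markers, KDR, CLDN5 and PECAM1 were higher, at log2 fold changes of 0.53, 1.14 and 0.92 (adjusted p = 0.00844, 0.0191 and 0.0409, edgeR), and their calls held in 6, 4 and 1 of the 6 fits with a library left out. The summed CPM of the 5 endothelial markers was 40 to 42.5 in control and 52.9 to 66.5 in Sev libraries, that of the 6 leukocyte markers was 3.53 to 6.03 and 8.56 to 10.6, and that of the 4 epithelial markers was 27.8 to 29 and 31.9 to 39.1. That of the 7 neuronal markers was 94.3 to 107 and 84.9 to 91.7, and that of the glial list was 7790 to 8680 and 8840 to 9300. The part of these shifts in the results below was not tested.

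The start sites show what these genes share at the level of sequence. In RefSeq (GRCh38.p14), 68 of the 85 members had a promoter entry. The entries missing included those of RPL23, RPL23A, RPL30, RPL37, RPL39L, RPL3L, RPL5, RPL7, RPL8, RPS15A, RPS2 and RPS20. The windows printed here run from 20 bases before the annotated start to 10 bases from it, 5′ to 3′ on the gene's strand. Capitals mark any of 4 short pyrimidine words, which are CTTTC and CTTTT as well as CTTCC and also CTCTT, with overlapping words run together. RPL41, RPL35A, RPS6 and RPLP2 are shown as examples of higher members, RPL36AL and RPL36A as a paralog and its parent, of which the first was called, RPL22 as a member that was not called, and RPL7L1 and RPS27L as paralogs without such a word.
RPL41 (chr12:56116613-56116642, plus strand): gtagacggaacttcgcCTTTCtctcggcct
RPL35A (chr3:197950170-197950199, plus strand): ccacgcggcggggcctcgtccttCTCTTac
RPS6 (chr9:19380227-19380256, minus strand): gcgctaagcggaagttggccCTCTTTTccg
RPLP2 (chr11:809947-809976, plus strand): gcCTCTTgcgtcggcgcCTTCCTTTTcctc
RPL36AL (chr14:49620617-49620646, minus strand): tccgcctgtttCTTCCCTTTCctgttaggc
RPL36A (chrX:101390991-101391020, plus strand): ttccgtttgcctcgcggtttCTTTCTTTCc
RPL22 (chr1:6199586-6199615, minus strand): ctgcgtagttcgctcacctccCTTTCtaac
RPL7L1 (chr6:42879596-42879625, plus strand): cgcgccggaagtgcggcgccgtagctagga
RPS27L (chr15:63157468-63157497, minus strand): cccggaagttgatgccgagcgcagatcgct

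Within 20 bases either side of the start, 53 of the 68 members (77.9%) held at least 1 of the 4 words on the gene's strand, against 21.0% of 27305 RefSeq promoters. On the opposite strand the shares were 13.2% and 18.4%. The 8 letters CCGGAAGT, part of the site of ETS-family factors, were in 16.2% of the members' 300-base windows on either strand, against 4.44% of all. ATGGCGG, a word of the YY1 site, was in 17.6% against 5.72%. TATAAA, searched on either strand 45 to 16 bases before the start, was in 8.82% against 3.25%, and TGACGTCA, the cAMP response element, was in 4.41% against 1.98% on either strand. Each match is a description of the letters around an annotated start, which need not be the start used in these cells.

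The mRNAs of 63 ribosomal protein genes were higher in Sev-treated cells and none was lower, at an adjusted p-value under 0.05 (quasi-likelihood test of edgeR, Benjamini-Hochberg method over all 27514 features tested). Of all tested features, 22.1% were higher and 21.5% were lower by the same call. The shifts were small and alike. The median log2 fold change of the 82 members was 0.36, or 28.0% higher, with the middle 50% between 0.28 and 0.45, and the median standard error (SE) of a member was 0.095. Over all tested features the median was −0.006. The log2 fold change was positive for 81 members, up to 0.82 for RPL17. It lay within 0.25 of the median for 73 members. No member passed the fold change that the study's methods set, a log2 fold change over 1 with an unadjusted p under 0.05, which 23.5% of all features passed in either direction.

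**Figure D1:**
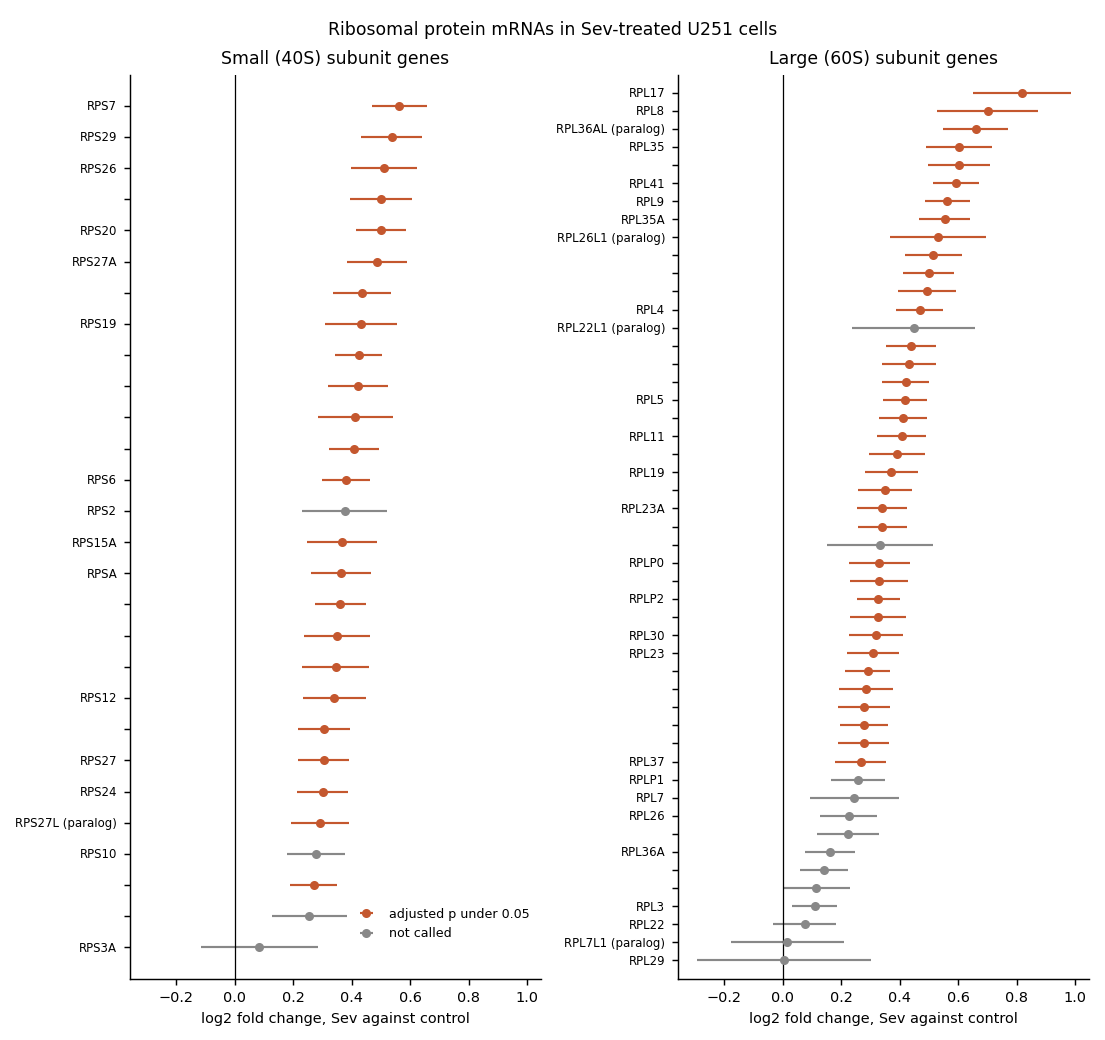
Log2 fold change (Sev against control) of 77 of the 82 tested ribosomal protein genes, with the small subunit on the left and the large subunit on the right. Points are estimates from edgeR, bars are 1 standard error, and the 60 genes in color had an adjusted p under 0.05. Names are printed for genes named in the text. The points drawn lie between 0.003 and 0.82.

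In 69 of the 82 members, all 3 Sev libraries lay above all 3 control libraries, an arrangement found in 28.3% of all tested features. In none did all 3 Sev libraries lie below all 3 control libraries, against 28.2% of all features. The other 13 members overlapped. Members are also more abundant than most features. Of the 4044 other protein-coding genes with a mean of at least 50 CPM, 35.3% were higher and 14.6% were lower, with a median log2 fold change of 0.15. These shares are given beside that of the members and were not tested against it.

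The libraries differed within the control group. Member genes took 1.90%, 2.12% and 2.06% of all counts in control 1, 2 and 3 and 2.43%, 2.23% and 2.38% in Sev 1, 2 and 3. The median member was −0.12, 0.12 and 0.01 from the control mean on the log2 CPM scale in control 1, 2 and 3. It was 0.43, 0.34 and 0.37 above that mean in Sev 1, 2 and 3. Control 2 was the highest control library and control 1 the lowest, with 76 and 7 members above the control mean. Each Sev library had 79 or 80 of the 82 members above it. In RNA from a whole culture, fewer cells that express a gene and less RNA per cell cannot be told apart, and TMM-scaled values are shares and not amounts per cell.

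**Figure D2:**
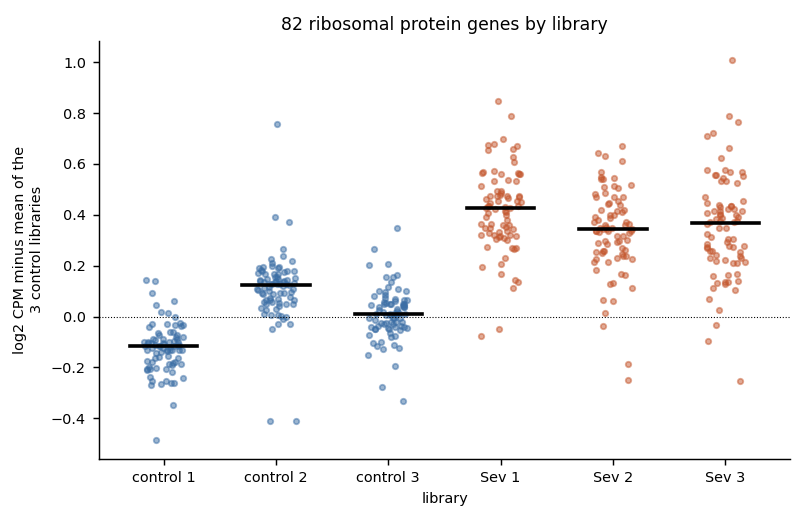
Each point is a ribosomal protein gene in a library, as its log2 CPM minus its mean over the 3 control libraries, with 82 genes per library and a black line at the median. The medians are −0.12, 0.12 and 0.01 in control libraries and 0.43, 0.34 and 0.37 in Sev libraries.

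The number of calls depended on single libraries, while the median depended on them less. Without control 1 there were 39 higher members, without control 3 there were 38 and without Sev 1 there were 32, each with fewer samples by construction. The share of all features called higher also fell, to 17.6%, 16.8% and 16.7% in these 3 fits. Without control 2, Sev 2 or Sev 3 there were 59, 53 and 49 higher members, beside 19.0%, 20% and 19.2% of all features. In the 6 fits the median log2 fold change stayed between 0.29 and 0.42 and no member was called lower. A total of 30 members were called in each of the 6 fits, and 20 of the 63 were called in fewer than 3. Scaling by library size only, in place of TMM, moved the median of all features to −0.15 and that of the members to 0.22, with 30 members and 17.0% of all features called higher. Among the 27 members whose calls were followed singly in each alternative, RPLP0, RPLP2, RPSA, RPL19, RPS12, RPS27, RPS27L and RPL26L1 lost their calls with it, at adjusted p-values from 0.0548 (RPLP2) to 0.303 (RPS27L). RPLP0, RPS12, RPS27, RPS27L and RPL26L1 also lost them without an expression filter and with a replicate block (adjusted p from 0.0501 to 0.101, edgeR), and these genes, RPSA and RPL19 lost them on each FPKM setting (adjusted p from 0.0578 to 0.444, limma). A change of scaling moves all features by about the same amount, so the distance between both medians stayed at 0.36 by construction.

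RPL41, RPL9, RPL35A and RPS7 were among the higher members with the smallest p-values. RPL41 (ENSG00000229117, chromosome 12, 56116586 to 56117943) encodes a very short basic protein of the large subunit. It had 134, 123 and 120 CPM in the control libraries and 198, 183 and 187 CPM in the Sev libraries. The lowest Sev library was well above the highest control library, and the log2 fold change was 0.59 (SE 0.078, adjusted p = 0.000953, edgeR).

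RPL9 (ENSG00000163682, chromosome 4, 39452521 to 39458949), a large-subunit protein near the site where translation factors bind, had 115, 130 and 128 CPM in control and 184 CPM in each Sev library. The Sev libraries were almost equal and all above control, with a log2 fold change of 0.56 (SE 0.076, adjusted p = 0.00104, edgeR). Pseudogenes named after RPL9 held 45.8% of the counts of the gene and its pseudogenes together, so the level of RPL9 itself is uncertain. The LIAS gene overlaps an exon of RPL9 on the opposite strand, and it moved the other way, with a log2 fold change of −1.36 (adjusted p = 0.00112, edgeR).

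RPL35A (ENSG00000182899, chromosome 3, 197949980 to 197956610), whose loss of function causes Diamond-Blackfan anemia, had 180, 204 and 202 CPM in control and 307, 270 and 282 CPM in Sev libraries. All Sev libraries were higher, and the log2 fold change was 0.55 (SE 0.087, adjusted p = 0.00194, edgeR). RPS7 (ENSG00000171863, chromosome 2, 3575205 to 3580920), a small-subunit protein that also binds the p53 regulator MDM2, had 155, 189 and 185 CPM in control and 271, 257 and 253 CPM in Sev libraries. Here too no control library reached a Sev library, and the log2 fold change was 0.56 (SE 0.094, adjusted p = 0.00252, edgeR). All 4 genes kept their calls when any 1 library was left out.

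**Figure D3:**
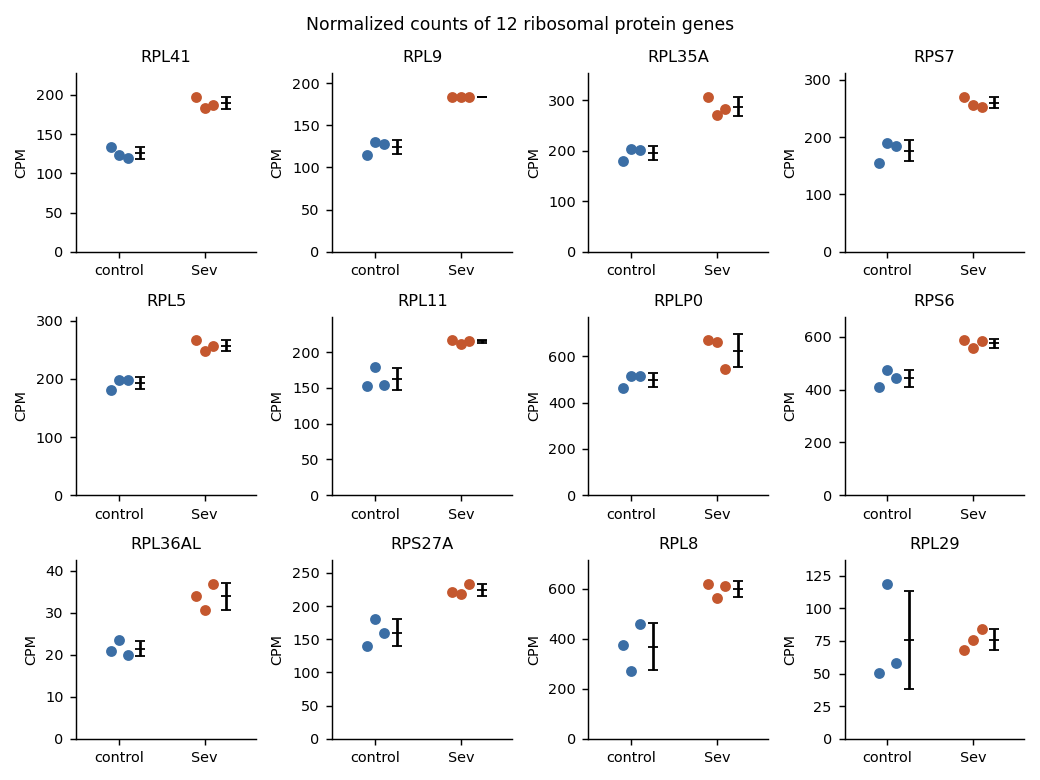
CPM of 12 ribosomal protein genes in each library, with control in blue and Sev in orange. Black bars give the mean and SD of 3 libraries and the axes start at 0. The groups are apart in every panel except RPL29, which ranges from 50.3 to 119 CPM within the control group.

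RPL5 and RPL11 carry the 5S ribosomal RNA into the large subunit and, when free of it, bind MDM2. Both were higher. RPL5 had 181, 199 and 198 CPM in control libraries and 267, 248 and 257 CPM in Sev libraries. Its log2 fold change was 0.42 (SE 0.075, adjusted p = 0.0034, edgeR). RPL11 had 153, 180 and 154 CPM and then 217, 212 and 216 CPM, with no overlap and a log2 fold change of 0.41 (SE 0.085, adjusted p = 0.0066, edgeR). Neither call was lost when a library was left out.

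The P stalk is the flexible arm of the large subunit that recruits elongation factors. RPLP0, its base, had 463, 515 and 514 CPM in control and 671, 661 and 544 CPM in Sev libraries. Sev 3 was near the control libraries, and the log2 fold change was 0.33 (SE 0.10, adjusted p = 0.034, edgeR). The call held without Sev 3 (adjusted p = 0.0138, edgeR) and was lost without any of the other 5 libraries, with adjusted p-values from 0.0611 (without control 2) to 0.12 (without Sev 1). RPLP2, at the tip of the stalk, had 150, 158 and 165 CPM in control and 196, 205 and 192 CPM in Sev libraries. These groups were apart, with a log2 fold change of 0.33 (SE 0.075, adjusted p = 0.00968, edgeR), and the call held in all 6 fits with a library left out. It was lost with library size only (0.18, adjusted p = 0.0548, edgeR), with the length and GC trend removed (0.19, adjusted p = 0.0521) and on FPKM without a filter (0.18, adjusted p = 0.0624, limma). For RPLP1, its partner, the values were 417, 506 and 482 CPM in control and 563, 574 and 540 CPM in Sev libraries. All Sev values were above control, but the log2 fold change of 0.26 did not pass (adjusted p = 0.0549, edgeR). It passed with DESeq2 size factors (0.0495), the DESeq2 Wald test (0.0478), pseudogene counts added (0.0492) or control 2 left out (0.0454), and the adjusted p was up to 0.34 in the other settings.

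Of 9 proteins that line or surround the exit tunnel for the nascent chain, 7 were higher and none was lower, with a median log2 fold change of 0.34. RPL35 and RPL4 rose by 0.60 and 0.47 on the log2 scale, with adjusted p-values of 0.00436 and 0.0028 in edgeR. RPL26 had a log2 fold change of 0.23 and RPL22 one of 0.075, and neither passed. These figures, like the other group counts, stand beside the 22.1% of all features that were higher.

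In the small subunit, 25 of the 31 standard genes were higher, with a median log2 fold change of 0.37. In the large subunit 35 of 46 were higher, with a median of 0.34. RPS6, the protein that S6 kinases phosphorylate downstream of mTORC1, had 411, 473 and 445 CPM in control libraries and 588, 557 and 583 CPM in Sev libraries. All Sev libraries were above control, with a log2 fold change of 0.38 (SE 0.082, adjusted p = 0.00765, edgeR). The call of RPS6 was lost on FPKM without a filter (0.24, adjusted p = 0.0769, limma). RPSA, also known as the laminin receptor, had 582, 740 and 695 CPM in control and 893, 849 and 851 CPM in Sev libraries, a log2 fold change of 0.36 (SE 0.10, adjusted p = 0.0232, edgeR). Its groups did not overlap, but the call was lost without control 3 (adjusted p = 0.0578, edgeR), Sev 1 (0.084) or Sev 3 (0.0524).

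RPS27A encodes ubiquitin joined to a small-subunit protein. It had 140, 180 and 160 CPM in control and 221, 218 and 234 CPM in Sev libraries. The log2 fold change was 0.49 (SE 0.10, adjusted p = 0.00655, edgeR), and no library left out removed the call. CLHC1, which overlaps an exon of RPS27A on the opposite strand, had a log2 fold change of −1.79 (adjusted p = 0.00151, edgeR).

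Of the 14 proteins in the head of the small subunit, which moves during translocation, 11 were higher, with a median log2 fold change of 0.41. Among 9 genes in which mutations cause Diamond-Blackfan anemia, a failure of red cell production, 7 were higher, with a median of 0.42. Besides RPL5, RPL11, RPL35A and RPS7 these were RPS19, RPS24 and RPS26, at log2 fold changes of 0.43, 0.30 and 0.51. The call of RPS19 was lost without Sev 1 (adjusted p = 0.0845, edgeR), and that of RPS24 held only without control 2 (0.016) or Sev 2 (0.0347). RPS10, at 0.28, did not pass (adjusted p = 0.053, edgeR).

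RPS12, RPS2 and RPL19 had the highest values on the FPKM scale, which divides by gene length. Their mean FPKM over the 6 libraries was 391, 323 and 260. The median standard member was at 62.1 FPKM and the lowest, RPS29, at 3.7 FPKM. This order rests on the length used. The annotated exons of a member, merged over its transcripts, span from 746 bases (RPL36AL) to 9845 bases (RPS29), and those of RPS12 span 767, RPS2 2413 and RPL19 1761 bases, which need not be the lengths of the mRNAs in these cells. RPS12, a protein of the beak of the small subunit, had 232, 303 and 279 CPM in control and 356, 349 and 325 CPM in Sev libraries. This was a log2 fold change of 0.34 (SE 0.11, adjusted p = 0.0345, edgeR) without overlap. The call held only without control 2 (adjusted p = 0.024, edgeR), and in the fits without the other libraries the adjusted p ran from 0.0509 (without Sev 3) to 0.11 (without Sev 1). The call of RPS12 was also lost without an expression filter (0.0692), with a replicate block (0.0559), with the length and GC trend removed (0.0597) and on FPKM (0.165 to 0.262, limma). RPL19, a large-subunit protein that forms a bridge to the small subunit, had 457, 541 and 484 CPM in control and 647, 604 and 666 CPM in Sev libraries. Its log2 fold change was 0.37 (SE 0.091, adjusted p = 0.0129, edgeR), and its call was lost without control 3 (0.054) or Sev 1 (0.0518). RPS2, at the mRNA entry of the small subunit, had 690, 862 and 952 CPM in control and 1150, 1180 and 924 CPM in Sev libraries. Sev 3 lay under control 3, and the log2 fold change of 0.38 did not pass (SE 0.14, adjusted p = 0.0663, edgeR). It passed without Sev 3 (adjusted p = 0.0394, edgeR), with pseudogene counts added (0.044) and in the DESeq2 Wald test (0.0375).

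The 8 paralog-type genes ranged from 0 to 32.9 FPKM, the last for RPL36AL, which has the shortest exons of the members. RPL10L and RPL39L had no count in any library, and a count of 0 allows up to 3 counts per library (counting error only). RPL3L, known from muscle, had 9, 2 and 12 counts in control libraries and 0, 0 and 3 in Sev libraries and was too low to test. Of the 5 tested paralogs, 3 were higher, with a median log2 fold change of 0.45. RPL22L1 and RPS27L were at 2.39 and 2.51 FPKM, the lowest of the tested members on that scale, with exons of 2326 and 9127 bases.

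RPL36AL and its parent RPL36A encode nearly the same protein of the large subunit. RPL36AL (chromosome 14, 49618519 to 49620685) had 20.9, 23.6 and 20 CPM in control and 34.1, 30.7 and 37.0 CPM in Sev libraries. The groups were apart, with a log2 fold change of 0.66 (SE 0.11, adjusted p = 0.00274, edgeR) and a call that held in all 6 fits. RPL36A (chromosome X, 101390824 to 101396154) had 109, 125 and 108 CPM and then 125, 133 and 125 CPM, a log2 fold change of 0.16 that did not pass (adjusted p = 0.162, edgeR). This missing call depended on the setting. RPL36A was called higher with its pseudogene counts added (0.25, adjusted p = 0.0383, edgeR) and with the trend in length and GC content removed (0.27, adjusted p = 0.0374). Scaling by library size only brought it to 0.02. Pseudogenes of RPL36A held 26.8% of its shared counts, and RPL36AL has no named pseudogene with counts. Counts of the paralog were 19.1%, 18.9% and 18.5% of those of the parent in control libraries and 27.4%, 23.0% and 29.6% in Sev libraries. Every Sev ratio was above every control ratio. The exact permutation test of the ratio gave p = 0.1, the smallest that 3 libraries against 3 allow, or 0.25 adjusted over the 5 pairs compared.

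RPL26L1 had 8.01, 8.28 and 5.77 CPM in control and 10.1, 11.1 and 10.6 CPM in Sev libraries. All Sev libraries were higher, with a log2 fold change of 0.53 (SE 0.17, adjusted p = 0.0327, edgeR). The call held only without control 2 (adjusted p = 0.0384, edgeR), and without the others the adjusted p was 0.0531 (without control 1) to 0.0904 (without control 3). Its parent RPL26 had 264, 322 and 284 CPM and then 339, 360 and 318 CPM, and its log2 fold change of 0.23 did not pass (adjusted p = 0.094, edgeR). It passed without control 2 (0.0442).

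RPS27L, a known p53 target, had 25, 25.3 and 23.9 CPM in control and 28.3, 29.2 and 33.4 CPM in Sev libraries. The log2 fold change was 0.29 (SE 0.099, adjusted p = 0.0443, edgeR), and the call was lost with any 1 library left out, at adjusted p-values from 0.0557 (without Sev 2) to 0.146 (without control 3). RPS27, its parent, had 99.0, 112 and 93.5 CPM and then 129, 122 and 125 CPM, a log2 fold change of 0.30 (adjusted p = 0.0243, edgeR). The call of RPS27 held without control 2 (0.016) and without Sev 2 (0.0357), and in the other 4 fits the adjusted p was between 0.0565 (without Sev 3) and 0.107 (without control 3). In this pair the ratio to the parent overlapped between the groups (25.3%, 22.6% and 25.5% against 22.0%, 24.0% and 26.6%).

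RPL22L1, the paralog of an RNA-binding large-subunit protein, had 4.56, 5.07 and 5.97 CPM in control and 7.62, 5.22 and 8.46 CPM in Sev libraries. The groups overlapped, and the log2 fold change of 0.45 did not pass (SE 0.21, adjusted p = 0.121, edgeR), although it did without Sev 2 (0.0254). RPL22 had 102, 116 and 95.6 CPM and then 115, 117 and 97.6 CPM. Its log2 fold change was 0.075 (adjusted p = 0.604, edgeR) and was −0.069 with library size only, where the median of all features was −0.15.

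RPL7L1, a nucleolar relative of RPL7, had 74.2, 117 and 81.5 CPM in control and 107, 74.9 and 93.4 CPM in Sev libraries. Its log2 fold change of 0.015 (SE 0.19, adjusted p = 0.956, edgeR) had no stable sign, and ran from −0.12 to 0.23 with a library left out. RPL7 had 248, 384 and 275 CPM and then 367, 350 and 359 CPM, with control 2 above all others and a log2 fold change of 0.25 (adjusted p = 0.229, edgeR). Without control 2 it was 0.45 (adjusted p = 0.00963, edgeR). RPL3, the parent of RPL3L and a protein at the catalytic center, had 557, 572 and 573 CPM and then 614, 644 and 578 CPM. Its log2 fold change of 0.11 did not pass (adjusted p = 0.286, edgeR) and was −0.035 with library size only, the same setting as for RPL22.

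**Figure D4:**
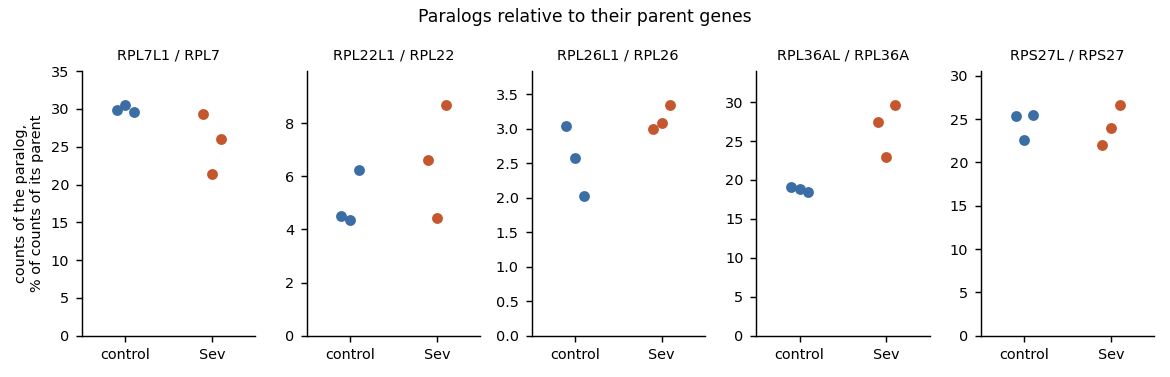
Counts of each paralog-type gene as a percentage of the counts of its parent, in each of 3 control (blue) and 3 Sev (orange) libraries, with axes from 0. The RPL36AL ratio is 18.5% to 19.1% in control and 23.0% to 29.6% in Sev libraries. The RPL7L1 ratio is lower in each Sev library, and the other 3 pairs overlap.

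A few members stood apart from the common shift and were chosen after their values were seen. RPL17, which sits beside the exit tunnel, had the largest log2 fold change, 0.82 (SE 0.17, adjusted p = 0.00603, edgeR), with 1139, 1631 and 1760 counts in control and 2326, 1994 and 2735 counts in Sev libraries. Its readthrough gene RPL17-C18orf32, which overlaps its exons, had 542, 478 and 527 counts in control and 0, 685 and 0 counts in Sev libraries. The readthrough was thus listed at 0 in Sev 1 and Sev 3, where RPL17 was highest. With both summed, the counts were 1681, 2109 and 2287 in control and 2326, 2679 and 2735 in Sev libraries, and the log2 fold change was 0.53 (SE 0.12, adjusted p = 0.00975, edgeR). RPL17 also had the largest pseudogene share of the members named here, 50.5%.

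RPL8, a protein of the catalytic center, had 375, 270 and 457 CPM in control and 620, 561 and 610 CPM in Sev libraries. The control libraries were far apart but all under Sev, with a log2 fold change of 0.70 (SE 0.17, adjusted p = 0.0133, edgeR), and the call held in all 6 fits. RPL29, by contrast, had 50.3, 119 and 58.1 CPM and then 68.0, 76.1 and 83.8 CPM. Control 2 was above every Sev library and the other control libraries were below them, so the log2 fold change was 0.003 (SE 0.30, adjusted p = 0.995, edgeR). Without control 2 it was 0.48 (adjusted p = 0.0257, edgeR). RPS3A had 258, 176 and 281 CPM and then 292, 271 and 196 CPM, with no separation.

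Reads can be split between a ribosomal protein gene and its processed pseudogenes, the intronless copies of its mRNA elsewhere in the genome. The table held 1600 features named as ribosomal protein pseudogenes, of which 1214 had any count. They took 7.80%, 7.16% and 7.27% of the counts on members and pseudogenes together in control libraries, and 7.17%, 7.19% and 7.30% in Sev libraries. These shares overlapped between the groups. Per member, the median pseudogene share was 3.12%, with 21 members over 10% and 24 under 1%. Of these 24, 22 were called higher. With the pseudogene counts added to each parent gene, 66 members were higher, 0 were lower and the median log2 fold change was 0.35.

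Of the 515 pseudogenes tested, 107 (20.8%) were higher and 86 (16.7%) were lower, with a median log2 fold change of 0.038. Other pseudogenes were higher in 18.1% and lower in 22.9%. The 20 with the most counts held 47.0% of all counts on these pseudogenes, and 16 of them were higher and 1 was lower. Among them RPS2P5 had a log2 fold change of 0.43, the RPL9 pseudogene ENSG00000237550 one of 0.46 and RPL36AP44 one of 0.86. The exception was RPL32P3, at −0.55 (adjusted p = 0.00874, edgeR). How the counting treated reads that fit both a gene and its copy is not given in the sources used here.

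Overlapping genes bear on the values too. Leaving small RNAs aside, no same-strand gene overlapped an exon of 69 tested members, and 56 of these were called higher. With the opposite strand counted too, 44 members were free of overlaps, and 35 of them were higher. Adding the counts of overlapping same-strand genes to the member, an alternative chosen after the data were seen, left 63 members higher and the median at 0.35. RPS13 was not among the members so changed, since the gene that overlaps it, PIK3C2A, holds more counts (32386 against 28016 over the 6 libraries). RPS13 had a log2 fold change of 0.42 and PIK3C2A one of 0.001. RPS15A lost its call (adjusted p = 0.091 against 0.0382 before, edgeR) and RPS10 gained one (0.0492 against 0.053).

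Small nucleolar RNAs (snoRNAs), which guide the modification of ribosomal RNA, lie within 28 of the members. Of these hosts 21 were higher, with a median log2 fold change of 0.33, and of the 54 tested members without one 42 were higher, with a median of 0.39. Of 60 snoRNA features, 23 were tested, 2 were higher and 1 was lower. Exactly 1 count was listed in every library for 24 of them, so their values say little of the snoRNAs.

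The shift of a member correlated only weakly with 4 of its other properties. Across the 82 members, the log2 fold change had a Pearson correlation of −0.20 with mean CPM, −0.17 with exon length, 0.06 with GC content and 0.08 with the pseudogene share. Spearman values were −0.21, −0.20, 0.02 and −0.08. The members share the same 6 libraries, so these values are descriptions. Of the 52 called members with a promoter entry, 44 (84.6%) held a pyrimidine word at the start, and of the 15 not called 9 (60%) did. Among the windows printed above, those of RPL36AL and RPL36A both held one, although only the first gene was called, and the missing call of RPL36A depended on the setting, as given above.

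Other parts of the translation machinery were taken from a list of 43 genes. Of these 24 were higher and 3 were lower, with a median log2 fold change of 0.36. FAU, in which a ubiquitin-like sequence is joined to a ribosomal protein, and RACK1, a scaffold on the small subunit, were both higher, at log2 fold changes of 0.61 and 0.38. FAU had 57.4, 67.5 and 68.1 CPM in control and 104, 98.6 and 91.4 CPM in Sev libraries (adjusted p = 0.00213, edgeR). RACK1 had an adjusted p-value of 0.0141 in edgeR, and its call was lost without control 3 (0.0648).

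The elongation factor EEF2, which moves the ribosome along the mRNA, had 2310, 2460 and 2470 CPM in control and 2980, 3330 and 2870 CPM in Sev libraries. All Sev libraries were higher, with a log2 fold change of 0.34 (adjusted p = 0.021, edgeR), and the call was lost without control 3 (0.054) or Sev 1 (0.0537). EEF1A1, which delivers the tRNA, had 2540, 2670 and 2570 CPM and then 2890, 3030 and 2670 CPM, and its log2 fold change of 0.15 did not pass (adjusted p = 0.222, edgeR). Of 5 elongation factor genes, 3 (60%) were higher. Of the 13 subunits of the initiation factor eIF3, which binds the small subunit, 9 (69.2%) were higher and none was lower, with a median of 0.44. EIF3D and EIF3B rose by 0.71 and 0.80 on the log2 scale, with adjusted p-values of 0.000367 and 0.000712 in edgeR.

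Of 11 further TOP mRNAs, 3 (27.3%) were higher and 1 (9.09%) was lower, with a median log2 fold change of 0.17. The share that was higher was near the 22.1% of all features and under the 35.3% of the abundant protein-coding genes. NPM1, a nucleolar chaperone of ribosome assembly, had 307, 395 and 353 CPM in control and 581, 537 and 570 CPM in Sev libraries, a log2 fold change of 0.68 (adjusted p = 0.0018, edgeR). EIF4A2, an RNA helicase of initiation, fell from 237, 216 and 206 CPM to 141, 142 and 135 CPM, with a log2 fold change of −0.66 (adjusted p = 0.000658, edgeR). TPT1 and PABPC1, both TOP mRNAs, had log2 fold changes of 0.025 and −0.059 and did not pass (adjusted p = 0.888 and 0.635, edgeR).

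Of 11 regulators of TOP translation, 6 (54.5%) were higher and 2 (18.2%) were lower. EIF4EBP1, which represses initiation when mTORC1 is inactive, had 18.5, 26.0 and 22.1 CPM in control and 36.3, 32.2 and 34.3 CPM in Sev libraries, a log2 fold change of 0.63 (adjusted p = 0.0076, edgeR). LARP1, which binds the TOP tract and holds such mRNAs stable and untranslated, had 360, 378 and 376 CPM and then 295, 340 and 297 CPM. All Sev libraries were below control, with a log2 fold change of −0.26 (adjusted p = 0.0374, edgeR), and the call held without control 1 (0.049) or Sev 2 (0.0147) and was lost without any of the other 4 libraries (0.0829 to 0.136). LARP4, a related poly(A)-binding protein, had a log2 fold change of −0.29 (adjusted p = 0.0174, edgeR), with its call lost without control 3 (0.0758) or Sev 1 (0.0759).

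The proteins of the mitochondrial ribosome, which are also encoded in the nucleus, were counted as another list. Of 78 genes 17 (21.8%) were higher and 5 were lower, with a median log2 fold change of 0.21. The share that was higher was near the 22.1% of all features, while that of the cytosolic ribosomal protein genes was 76.8%. The share that was lower, 6.41%, was under the 21.5% of all features. The log2 fold change was positive for 53 of the 78, and the median of all features was −0.006. The difference between the lists was not tested.

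**Figure D5:**
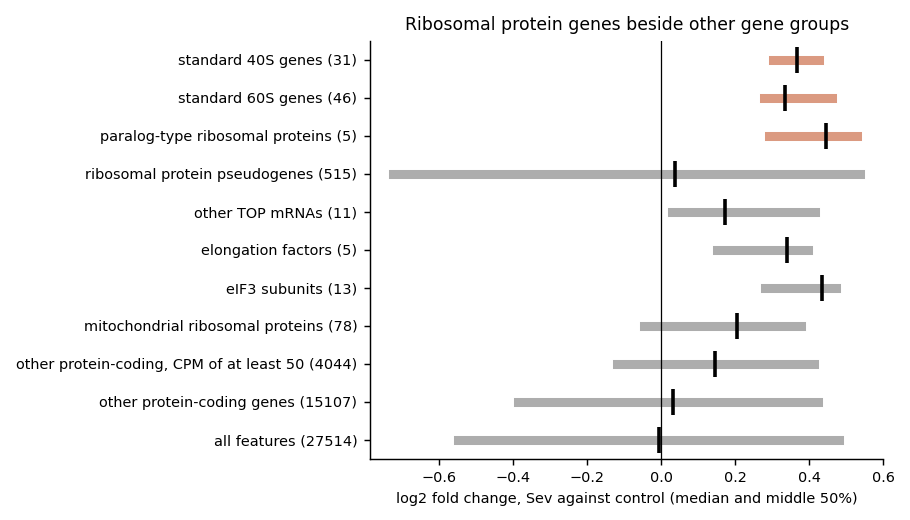
Median (black mark) and middle 50% (bar) of the log2 fold change, Sev against control, for ribosomal protein genes in orange and other groups in gray, with the number of genes tested in parentheses. The medians are 0.37 for standard 40S genes, 0.34 for standard 60S genes, 0.21 for mitochondrial ribosomal proteins, 0.038 for ribosomal protein pseudogenes and −0.006 for all features.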

How the data were processed

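Total RNA of U251 cells was depleted of ribosomal RNA and sequenced as paired-end, strand-specific libraries, 3 of control and 3 of Sev-treated cells. The authors deposited raw counts per gene and, for the same 61496 features, FPKM values, which scale counts by gene length and library size. The submitters' processing notes name featureCounts, bcl2fastq 2.19 and the build hg18. The aligner and the annotation are not given in the sources used here. Rows of assembled loci, a readthrough gene listed at 0 in some libraries and snoRNAs with exactly 1 count in every library leave it unsettled whether each value is a number of counted reads or a rounded estimate from assembled transcripts. Of the features, 60564 carry Ensembl identifiers and 932 carry identifiers of assembled loci (MSTRG). Symbols were joined for 60295 identifiers, and types, positions and exons for 58457 through GENCODE 29 on GRCh38. The tables give no positions, so all coordinates are those of GENCODE or RefSeq on GRCh38.

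Counts were tested in R 4.3.3 with edgeR 4.0.16 (filterByExpr, TMM, glmQLFit and glmQLFTest, no covariate), fitted on the whole table, with Benjamini-Hochberg adjustment over 27514 features and a limit of 0.05. Standard errors (SE) were derived from the log2 fold change and its F statistic (the size of the first over the root of the second). CPM values are TMM-scaled without a prior count, and TMM factors were 1.03 to 1.08 for control and 0.918 to 0.988 for Sev libraries. The ratio of count to FPKM varied by at most 1.2% between libraries for a tested member, after scaling by depth. Library totals of at least 38624292 counts leave the spread between 3 libraries, more than depth, as the limit of precision, except for low paralogs. Paralog ratios were compared by a two-sided exact permutation test (scipy 1.17.1). The edgeR model of the reported fit was first tested on simulated data. Replicates differed beyond sampling noise in 49% to 67.5% of genes per pair, so no library was a second copy of another.

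Named members were the 5 called with the smallest p, the paralogs with their parents, RPLP0, RPLP1, RPLP2, RPL5, RPL11, RPS6, RPSA, RPS27A and the 3 highest and 3 lowest by FPKM. From the translation list, 9 fixed genes and up to 3 per direction with the smallest p were named. The results of some genes that these rules name are not reported here, and 5 tested members are not drawn by name. Members and lists were chosen with earlier results of these data known. Promoters were the first RefSeq entry of each symbol. Alternatives were DESeq2 1.42.0 (size factors, Wald test), library size only, TMM on protein-coding genes, other filters, a replicate block, each library left out, limma 3.58.1 on FPKM, a correction for length and GC content (known for 94.1% of tested features), pseudogene counts added to parents, and overlapping genes added to members, the last chosen after the data were seen.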

Additional observations from a re-analysis of the deposited data

How the results depend on the processing

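No alternative called a member lower, and each kept a positive median. The number of members called higher, 63, became 30 with library size only, 32 with limma on log2(FPKM + 1) and on log2(FPKM + 0.1), and 22 on log2(FPKM + 1) without a filter. The members' medians were then 0.215, 0.209, 0.214 and 0.208, beside −0.147, −0.115, −0.166 and −0.009 for all features, of which 17.0%, 16.4%, 16.2% and 9.64% were higher, against 22.1% in the reported fit. The FPKM scale has no TMM scaling, and the constant added before the log shrinks the fold changes of low genes. The part of this constant in the lower medians was not tested. Leaving out a library gave 32 to 59 higher members, beside 16.7% to 20% of all features, and medians from 0.285 to 0.421. DESeq2 size factors gave 65, its Wald test 66, TMM on protein-coding genes 56, no filter 44 (with 12.2% of all features), at least 10 counts in every library 64 and the length and GC correction 55. The replicate block gave 43 higher members (with 19.0% of all features) and a median of 0.358, though the replicate numbers paired nothing: deviations of same-numbered libraries correlated at −0.0352, 0.00482 and 0.0589 over 19446 features. For the translation list, the 24 higher became 16 with library size only, 15, 14 and 12 on the 3 FPKM settings and 16 to 24 with a library left out. The 3 lower became 1 to 3 with a library left out and 4 with library size only and on each FPKM setting. Its median of 0.362 was 0.222 with library size only, 0.194, 0.195 and 0.194 on FPKM and 0.301 to 0.352 with a library left out. RPL7L1, RPL3 and RPL22 changed sign: to −0.118, −0.035 and −0.069 with library size only, −0.104, −0.036 and −0.066 on log2(FPKM + 1) with or without the filter, and −0.114, −0.037 and −0.069 on log2(FPKM + 0.1). RPL7L1 was also −0.025 with TMM on protein-coding genes and −0.121, −0.064 and −0.112 without control 1, control 3 and Sev 1, and over the 6 such fits it ran from −0.121 to 0.233. Over 27 named genes and 19 alternatives, 411 of 513 values kept direction and call, 74 lost the call, 12 gained one and 16 changed sign. Apart from the fits with fewer samples or another scaling, the cause of these changes was not tested.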
